A study of Mus musculus with 3 samples.

Results

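The epididymal transcriptome of castrated mice given corn oil was compared with that of sham-operated mice, gene by gene and by broad functional class. The comparison uses 2 libraries of the 3 in the series, and its members are the 16172 genes, of 23504 listed by symbol, that reached 1 TPM in at least one of them. TPM (transcripts per 1000000) is a unit of transcript abundance with the same total in every library. All mice were adult male ICR mice, an outbred strain. In the castrated group (Cas+CO, 5 mice) both testes were removed, the epididymides were left in place, and corn oil, the vehicle, was given from 14 days after surgery. In the Sham group (3 mice) the same surgery left the testes in place, and no injection is recorded. The third library, from castrated mice given testosterone propionate at 5 mg/kg in corn oil for 10 days (Cas+T, 5 mice), served only to choose genes for scaling. The labels do not say how many mice a library holds, and each group has 1 library. No value therefore has a replicate error, no test across animals exists, and every ratio below compares a pair of libraries.

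The epididymis is the coiled duct in which sperm acquire motility and the ability to fertilise. Its epithelium secretes large amounts of a few protein families into the lumen, and these programmes depend on androgen delivered both by the circulation and by the fluid of the testis. Removal of the testes takes away testosterone, testicular fluid and sperm together, and corn oil is recorded for the castrated group alone. The effects of these losses and of the corn oil cannot be told apart in this pair of groups.

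In outline, families of luminal secretion were far lower in Cas+CO than in Sham. Immune, matrix, signalling and cilium genes were higher more often than genes at large. After scaling, 41.1% of immune genes (without immunoglobulin and haemoglobin genes) and 26.7% of matrix genes were higher, against 13.0% of all genes. The excess was small for signalling (17.6%) and cilium genes (17.7%). Transcription and chromatin genes were higher as deposited, but not more often than genes at large after scaling (11.6%). Between these poles, most genes of translation, the proteasome, chaperones and energy metabolism lay within 2-fold as deposited, and these classes had medians below the median gene. Cytosolic ribosomal proteins still held a larger share of TPM in Cas+CO (9.92%) than in Sham (7.35%). Of the 16172 genes, 6069 (37.5%) were higher in Cas+CO by 2-fold or more and 1049 (6.49%) were lower by as much, as log2 ratios of TPM + 1. These shares are the background against which each class count below is read. A gene that reached 1 TPM in one library alone lies on that side by the choice of genes. Cas+CO had 15475 genes at 1 TPM or more and Sham had 13695. The 2477 compared genes under 1 TPM in Sham entered through Cas+CO alone, with 1724 higher and 0 lower (905 and 0 after scaling). Of the higher genes, 307 were listed at 0 in Sham, and 250 of the lower ones were listed at 0 in Cas+CO. The median gene stood 0.76 higher on the log2 scale. After the libraries were brought to the same median over 12671 genes at 1 TPM or more in all 3 libraries, which lowered Cas+CO values by a factor of 0.576, there were 2102 higher (13.0%) and 1897 lower genes (11.7%). The share of higher genes among all those past 2-fold was thus 85.3% as deposited and 52.6% after scaling. Since this scaling only lowers Cas+CO values, all 1049 genes lower as deposited stay lower by construction. At 8-fold the counts were 268 higher and 202 lower as deposited, and 101 higher and 267 lower after scaling.

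**Figure D1:**
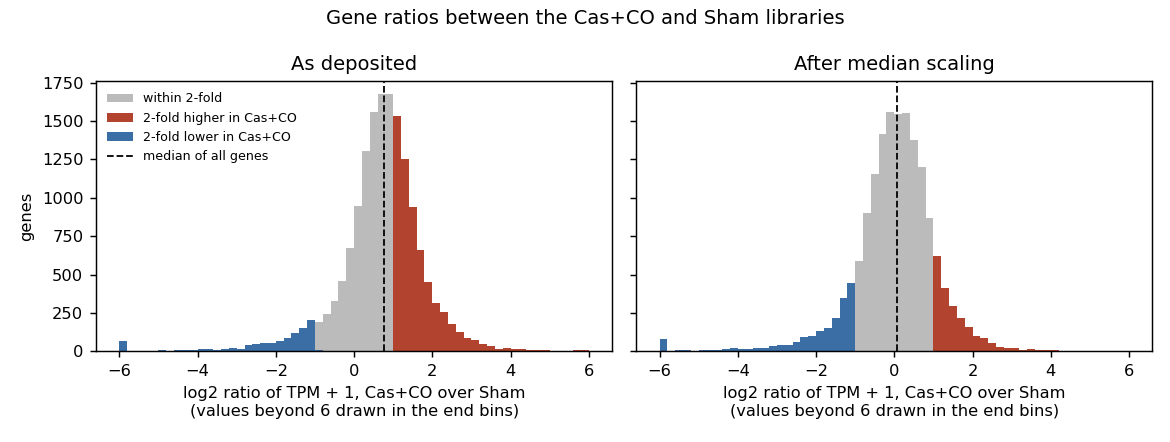
Number of genes by log2 ratio of TPM + 1, Cas+CO over Sham, as deposited (left) and after median scaling (right). The dashed line, the median of all genes, lies at 0.76 as deposited and at 0.07 after scaling, and a long tail of strongly lower genes is present in both panels.

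TPM has a fixed sum, so the amounts by which genes were higher and lower balance. Genes higher in Cas+CO exceeded Sham by 281730 TPM in sum. Crisp1, a secreted protein that binds sperm, had the largest loss in TPM, with 6654 TPM in Cas+CO and 44116 TPM in Sham. It was followed by Gpx5, a secreted glutathione peroxidase, at 335 TPM in Cas+CO and 17098 TPM in Sham, and by Cd52, a glycopeptide that coats sperm, at 209.8 TPM in Cas+CO and 16184 TPM in Sham. Not every large loss was of an epididymal secretion: Itm2b, a widely expressed membrane protein, stood at 4037 TPM in Cas+CO and 9247 TPM in Sham.

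The largest gain in TPM was that of Clu (clusterin), a secreted chaperone, at 25834 TPM in Cas+CO and 8368 TPM in Sham. Cst3, the widely expressed protease inhibitor cystatin C, had 6254 TPM in Cas+CO and 722 TPM in Sham. The translation factor Eef1a1 had 11193 TPM in Cas+CO and 8473 TPM in Sham, a ratio of 0.40 that lies below the median gene and turns to −0.39 after scaling. Apoe, an apolipoprotein, was at 2456 TPM in Cas+CO and 1028 TPM in Sham. Clu and Cst3 remained above 0 after scaling, at 0.83 and 2.32, but only Cst3 then passed 2-fold.

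**Figure D2:**
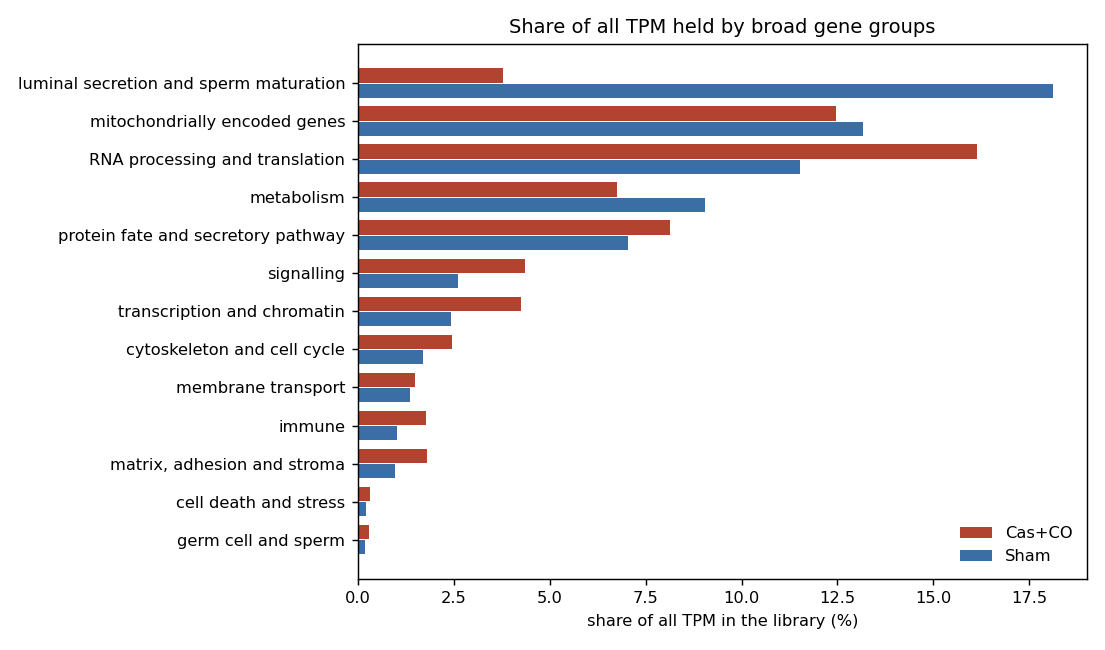
Share of all TPM (%) held by 13 broad groups of genes in the Cas+CO (upper bar) and Sham (lower bar) libraries, 1 library each. Luminal secretion held 3.79% in Cas+CO and 18.1% in Sham, whereas RNA processing and translation held 16.1% in Cas+CO and 11.5% in Sham; a group of loosely defined families and the genes in no class are not drawn, and the immune group here includes haemoglobin and immunoglobulin genes.

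Of 198 compared genes in the families of luminal secretion and sperm maturation, 109 were at least 2-fold lower and 45 higher in Cas+CO (117 lower and 29 higher after scaling). Beta-defensins, small cationic antimicrobial peptides, held 0.490% of TPM in Cas+CO and 3.60% in Sham, with 29 of 36 lower and 3 higher (31 lower and 0 higher after scaling). Lipocalins, carriers of small lipophilic ligands, held 0.0602% in Cas+CO and 1.91% in Sham, with 11 of 12 lower. Kazal, WAP and Kunitz inhibitors, which block serine proteases, were lower for 23 of 33 and higher for 6. Secretoglobins, Teddm, Clpsl and similar secretions were lower for 12 of 14, with 0 higher.

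The extreme members were close to absent in Cas+CO. The beta-defensins Defb18 and Defb48 were listed at 0 in Cas+CO and stood at 5648 TPM and 4135 TPM in Sham. Teddm1a, an epididymal membrane protein, was at 0.12 TPM in Cas+CO and 1195 TPM in Sham. Lcn5, a lipocalin that carries retinoic acid, was at 11.4 TPM in Cas+CO and 7945 TPM in Sham. In all, 39 genes at 10 TPM or more in Sham were listed at 0 in Cas+CO, and 18 of them belonged to these families.

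**Figure D3:**
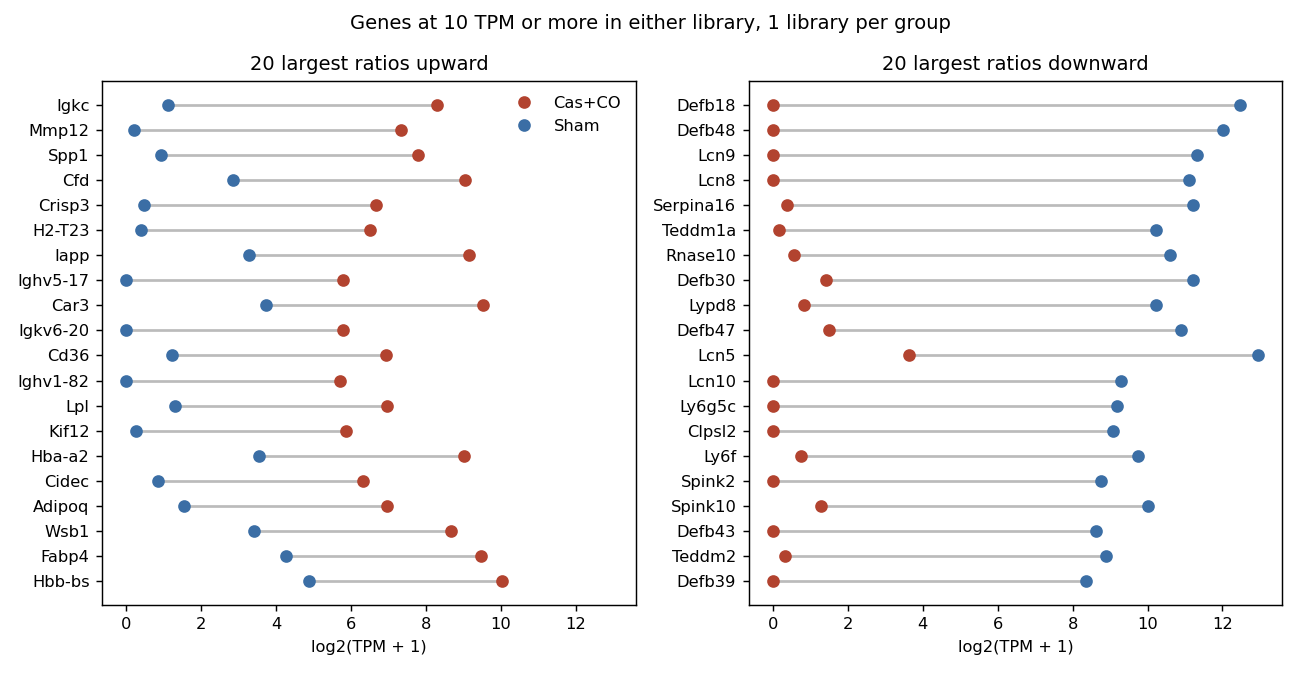
The 20 genes with the largest ratios in each direction among genes with a proper symbol at 10 TPM or more in either library, as log2(TPM + 1) in Cas+CO and Sham. In the right panel 10 genes, from Defb18 to Defb39, are listed at 0 in Cas+CO, and in the left panel 3 immunoglobulin segments are listed at 0 in Sham.

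At the other extreme, the 20 largest ratios upward included immunoglobulin genes such as Igkc, haemoglobin genes such as Hba-a2, genes of fat, and genes of other roles. Iapp, the peptide hormone amylin, had 570.0 TPM in Cas+CO and 8.73 TPM in Sham, and Crisp3, a CRISP family member of secretory glands and neutrophils, had 100.03 TPM in Cas+CO and 0.39 TPM in Sham. Kif12, a kinesin motor, had 57.7 TPM in Cas+CO and 0.19 TPM in Sham. Wsb1, a subunit of ubiquitin ligases, had 408 TPM in Cas+CO and 9.71 TPM in Sham. Several others, such as Cd36 and the marker genes Cfd, Adipoq, Cidec and Fabp4, are known from fat, whose markers are given below.

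The secretory families were not lower throughout. Spink8, a Kazal inhibitor, was the most abundant member of its class in both libraries, at 10115 TPM in Cas+CO and 11874 TPM in Sham. Its log2 ratio was −0.23 as deposited, within 2-fold, but −1.03 after scaling, which is past 2-fold lower. Defb6 stood at 17.9 TPM in Cas+CO and 5.57 TPM in Sham, but lay within 2-fold after scaling, at 0.78. Wfdc2, a WAP inhibitor, stood at 54.5 TPM in Cas+CO and 13.6 TPM in Sham, and stayed past 2-fold after scaling, at 1.15. Rbp4, the plasma retinol carrier, was the only higher lipocalin, at 20.9 TPM in Cas+CO and 0.26 TPM in Sham.

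Some families had members on both sides. Each pair below sets a lower epididymal member beside a higher member used in other tissues. The remaining members were not sorted in this way. In the serpins, 11 of 24 were higher and 5 lower. Serpina1f, an epididymal serpin, was at 75.3 TPM in Cas+CO and 4426 TPM in Sham, and Serping1, the complement C1 inhibitor, at 142 TPM in Cas+CO and 23.4 TPM in Sham. In the ribonuclease A family, 5 of 9 were lower and 3 higher. Rnase9, an epididymal member, had 7.66 TPM in Cas+CO and 2686 TPM in Sham, whereas Rnase4, expressed in many tissues, had 136 TPM in Cas+CO and 35.4 TPM in Sham. Among 13 ADAM genes, which encode membrane metalloproteases, 3 were lower and 5 higher. Adam7, a sperm surface protein, was at 13.6 TPM in Cas+CO and 4633 TPM in Sham, and Adam8, a protease of leukocytes, at 17.0 TPM in Cas+CO and 1.37 TPM in Sham.

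Some lower genes lay side by side in the genome (GENCODE M21, GRCm38). Lower genes made up 805 of 13976 compared protein-coding genes (5.76%). Of these 805, 122 (15.2%) stood in 27 runs of at least 3 neighbours, taken among compared protein-coding genes. In 16 of the runs, 2 or more genes belonged to the secretory families, which made up 198 of the 16172 compared genes. How many such runs a random order of genes would give was not tested. Together the runs held 0.518% of TPM in Cas+CO and 8.53% in Sham. The longest, of 9 genes at chr2:164613522-164745931, ran from Wfdc6b to Wfdc3 and included Spint4 and Spint5, at 1183 TPM in Cas+CO and 7801 TPM in Sham in sum. A run of 8 genes at chr2:25624666-25825537 held Lcn8, Lcn5, Lcn6, Lcn10 and Lcn9, at 34.4 TPM in Cas+CO and 13901 TPM in Sham.

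Not all runs were secretory. The glutathione transferases Gstm5, Gstm7, Gstm6 and Gstm2, which attach glutathione to reactive compounds, formed a run on chromosome 3 with 589 TPM in Cas+CO and 2873 TPM in Sham. The alcohol dehydrogenases Adh6a, Adh6b and Adh5, which oxidise alcohols, formed another with 117 TPM in Cas+CO and 342 TPM in Sham. By chromosome, the share of lower genes was highest at 9.01% on chromosome X (48 of 533) and 8.66% on chromosome 2 (113 of 1305). After scaling, 96 of the X-linked genes and 186 of those on chromosome 2 were lower. On the X chromosome the lower genes included Slc38a5, an amino acid transporter, at 8.47 TPM in Cas+CO and 966 TPM in Sham, and Ap1s2, a subunit of a clathrin adaptor, at 210.1 TPM in Cas+CO and 1181 TPM in Sham.

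The 250 bases before the transcription start were read from RefSeq promoters (GRCm38.p6), which covered 11104 of 13617 compared protein-coding genes. The first start listed for a gene was used. Promoters of the lower genes were poorer in CpG: the median number of CpG dinucleotides was 7 over 635 genes at least 2-fold lower and 3 over 142 genes at least 8-fold lower, against 15 over all. The letters AGAACA, searched on both strands and so also as TGTTCT, are those of a half-site bound by steroid hormone receptors. They stood in 15.7% of promoters of lower genes, 25.4% of those at least 8-fold lower, 11.0% of all compared genes and 16.2% of the 27025 promoters in the table. A TATAAA on the gene's strand between 45 and 10 bases before the start was found in 5.04% of lower genes, 6.34% of those at least 8-fold lower and 1.48% of all compared. The GGGCGG box, on both strands, was found in 42.2% of lower genes, 22.5% of those at least 8-fold lower and 57.3% of all compared. The palindrome of both orientations set 3 bases apart was in 0 of the promoters of compared genes. For the higher genes coverage was 79.9%, under the 80% needed, so no share is given. The genes were sorted by the same ratio, so these shares are descriptions, and a match of letters is not a binding site.

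The promoters below show how the letters fall in 5 genes with very low levels in Cas+CO and in Cst3, which was higher. AGAACA or TGTTCT on the gene's strand and TATAAA are in capitals. These are examples, and AGAACA or TGTTCT is more frequent among them than among lower genes. It stood in 15.7% of promoters of lower genes and 25.4% of those at least 8-fold lower. Each runs 5′ to 3′ on the strand of the gene and ends at the base before the RefSeq start. For 3 of the genes this is not the 5′ end of the gene in GENCODE M21. That end is chr2:148875692 for Cst3, inside the stretch shown. It is chr12:103676139 for Serpina16 and chr11:58379043 for Lypd8, both downstream of the stretch. Lcn9 (chr2:25822903-25823152, plus strand; listed at 0 in Cas+CO, 2552 TPM in Sham) has a match 45 bases before the start. Lcn5 (chr2:25657702-25657951, plus strand) has only the TATAAA, 28 bases before the start. Rnase10 (chr14:51007501-51007750, plus strand; 0.48 TPM in Cas+CO, 1562 TPM in Sham), a secreted ribonuclease family member, has a match 42 bases before it. Serpina16 (chr12:103676763-103677012, minus strand; 0.3 TPM in Cas+CO, 2389 TPM in Sham) and Lypd8 (chr11:58378782-58379031, plus strand; 0.77 TPM in Cas+CO, 1199 TPM in Sham), a Ly6-fold protein, have 2 matches each. Cst3 (chr2:148875513-148875762, minus strand; 6254 TPM in Cas+CO, 722 TPM in Sham) also has 2 matches, so the letters are not limited to lower genes.
Lcn9: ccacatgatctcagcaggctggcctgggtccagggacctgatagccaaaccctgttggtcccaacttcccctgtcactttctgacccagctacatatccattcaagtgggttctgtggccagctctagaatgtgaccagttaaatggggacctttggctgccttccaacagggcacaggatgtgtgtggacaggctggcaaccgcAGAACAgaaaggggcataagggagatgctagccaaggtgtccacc
Lcn5: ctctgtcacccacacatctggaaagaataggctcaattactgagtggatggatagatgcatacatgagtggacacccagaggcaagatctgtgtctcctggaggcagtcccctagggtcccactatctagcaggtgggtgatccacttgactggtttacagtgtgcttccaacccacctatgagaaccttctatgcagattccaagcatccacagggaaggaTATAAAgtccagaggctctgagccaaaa
Rnase10: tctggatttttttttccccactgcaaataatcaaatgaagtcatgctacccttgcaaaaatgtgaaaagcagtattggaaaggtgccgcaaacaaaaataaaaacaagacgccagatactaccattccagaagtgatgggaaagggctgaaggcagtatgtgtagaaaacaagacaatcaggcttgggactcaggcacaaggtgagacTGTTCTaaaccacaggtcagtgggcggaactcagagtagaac
Serpina16: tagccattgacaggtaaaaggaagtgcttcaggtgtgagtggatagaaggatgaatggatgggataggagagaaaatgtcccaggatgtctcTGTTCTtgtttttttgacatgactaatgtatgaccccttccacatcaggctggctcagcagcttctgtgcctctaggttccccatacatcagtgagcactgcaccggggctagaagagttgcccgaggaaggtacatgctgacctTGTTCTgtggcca
Lypd8: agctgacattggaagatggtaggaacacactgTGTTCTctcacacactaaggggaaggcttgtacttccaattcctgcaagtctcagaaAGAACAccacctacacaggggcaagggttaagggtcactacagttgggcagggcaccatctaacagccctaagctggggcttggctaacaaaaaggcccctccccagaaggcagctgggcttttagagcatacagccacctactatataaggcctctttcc
Cst3: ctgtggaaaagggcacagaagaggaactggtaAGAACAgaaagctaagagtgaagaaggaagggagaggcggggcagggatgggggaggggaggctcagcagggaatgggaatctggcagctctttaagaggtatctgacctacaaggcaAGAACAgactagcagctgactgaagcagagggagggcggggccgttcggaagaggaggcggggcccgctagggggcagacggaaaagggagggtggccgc

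Immune genes stood well above the median gene, with a median of 0.69 relative to it, leaving out immunoglobulin and haemoglobin genes. Of these 411 genes compared, 290 were higher and 7 lower (169 higher and 17 lower after scaling). Of 90 immunoglobulin genes, which encode antibody chains, 65 reached 1 TPM, most of them through Cas+CO alone, so their side follows from the choice of genes. Igkc, the kappa constant region, was at 315 TPM in Cas+CO and 1.15 TPM in Sham. Variable segments resemble each other closely, so the division of reads among them is uncertain.

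Interferon-induced genes had 78 higher and 1 lower gene among 96 (41 higher and 1 lower after scaling). Ifit3, an antiviral protein, had 30.9 TPM in Cas+CO and 0.42 TPM in Sham, and the one lower member was Isg20, an RNA exonuclease, at 18.8 TPM in Cas+CO and 576 TPM in Sham. Complement genes were higher for 20 of 27 with 0 lower (15 higher and 2 lower after scaling). C3, the central component, had 179.6 TPM in Cas+CO and 5.83 TPM in Sham, while C4bp, a regulator and the most abundant member, had 535 TPM in Cas+CO and 936 TPM in Sham. Chemokines and their receptors were higher for 22 of 31 with 0 lower, for example Cxcl12, which guides leukocytes and stem cells, at 93.8 TPM in Cas+CO and 19.2 TPM in Sham.

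The MHC genes, which present peptides to T cells, were not uniform. The class I chain H2-T23 was at 89.8 TPM in Cas+CO and 0.30 TPM in Sham, and the class II chain H2-Eb1 at 27.6 TPM in Cas+CO and 0.10 TPM in Sham. B2m, the light chain that all class I molecules share, was lower, at 1837 TPM in Cas+CO and 4361 TPM in Sham. Of 30 MHC genes, 19 were higher and 1 was lower (14 higher and 2 lower after scaling).

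Markers of several cell types were higher beside these classes. All 8 white adipocyte markers were higher, with a sum of 1559 TPM in Cas+CO and 33.0 TPM in Sham, and all 5 erythroid markers were higher, with a sum of 2731 TPM in Cas+CO and 82.9 TPM in Sham. The 6 macrophage markers summed to 605 TPM in Cas+CO and 64.3 TPM in Sham, of which Lyz2, a lysozyme, made up 496 TPM in Cas+CO and 34.1 TPM in Sham. All 6 were higher as deposited, with a median ratio of 1.70, and 2 after scaling. The 6 B and plasma cell markers summed to 362 TPM in Cas+CO and 1.59 TPM in Sham, and the 6 endothelial markers to 41.6 TPM in Cas+CO and 4.63 TPM in Sham. Of 5 markers of mesothelium, the covering of the organ, 4 were higher, among them Upk3b at 37.2 TPM in Cas+CO and 2.36 TPM in Sham, whereas Krt19, also made by duct epithelium, stood at 348 TPM in Cas+CO and 393 TPM in Sham. The part of blood, fat or adjoining tissue in the ratios was not tested. In whole tissue, fewer cells of a type and less RNA per cell cannot be told apart.

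The labelled organ was recognisable in both libraries. Of 10 epididymal epithelium markers, 0 were at 0 in either library, with sums of 10368 TPM in Cas+CO and 96233 TPM in Sham. Of these, 6 were lower and 2 higher (8 and 2 after scaling). Crisp1 (6654 TPM) and Spag11b (2900 TPM) made up most of the sum in Cas+CO, where Rnase10 was at 0.48 TPM. The tight junction gene Cldn10 was higher, at 118 TPM in Cas+CO and 17.9 TPM in Sham. The 4 hepatocyte markers stayed under 1 TPM in both.

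Matrix and stromal classes also lay above the median gene. Collagens had 25 higher and 1 lower gene among 32 (15 and 1 after scaling). Col3a1, a fibrillar collagen, had 304 TPM in Cas+CO and 16.9 TPM in Sham, and the lower member was Col6a4, at 1.40 TPM in Cas+CO and 29.8 TPM in Sham. Proteoglycans, glycoproteins and cross-linkers were higher for 61 of 82 with 0 lower (32 higher and 3 lower after scaling), led by Spp1 (osteopontin), at 221 TPM in Cas+CO and 0.88 TPM in Sham. Matrix proteases and their inhibitors had 23 higher and 1 lower gene among 33. Both extremes were wide: Mmp12, the macrophage elastase, was at 161 TPM in Cas+CO and 0.15 TPM in Sham, and Mmp7 (matrilysin) at 0.80 TPM in Cas+CO and 66.3 TPM in Sham. Vim, the mesenchymal filament vimentin, had 247 TPM in Cas+CO and 16.0 TPM in Sham, while the epithelial keratin Krt18 had 471 TPM in Cas+CO and 344 TPM in Sham.

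**Figure D4:**
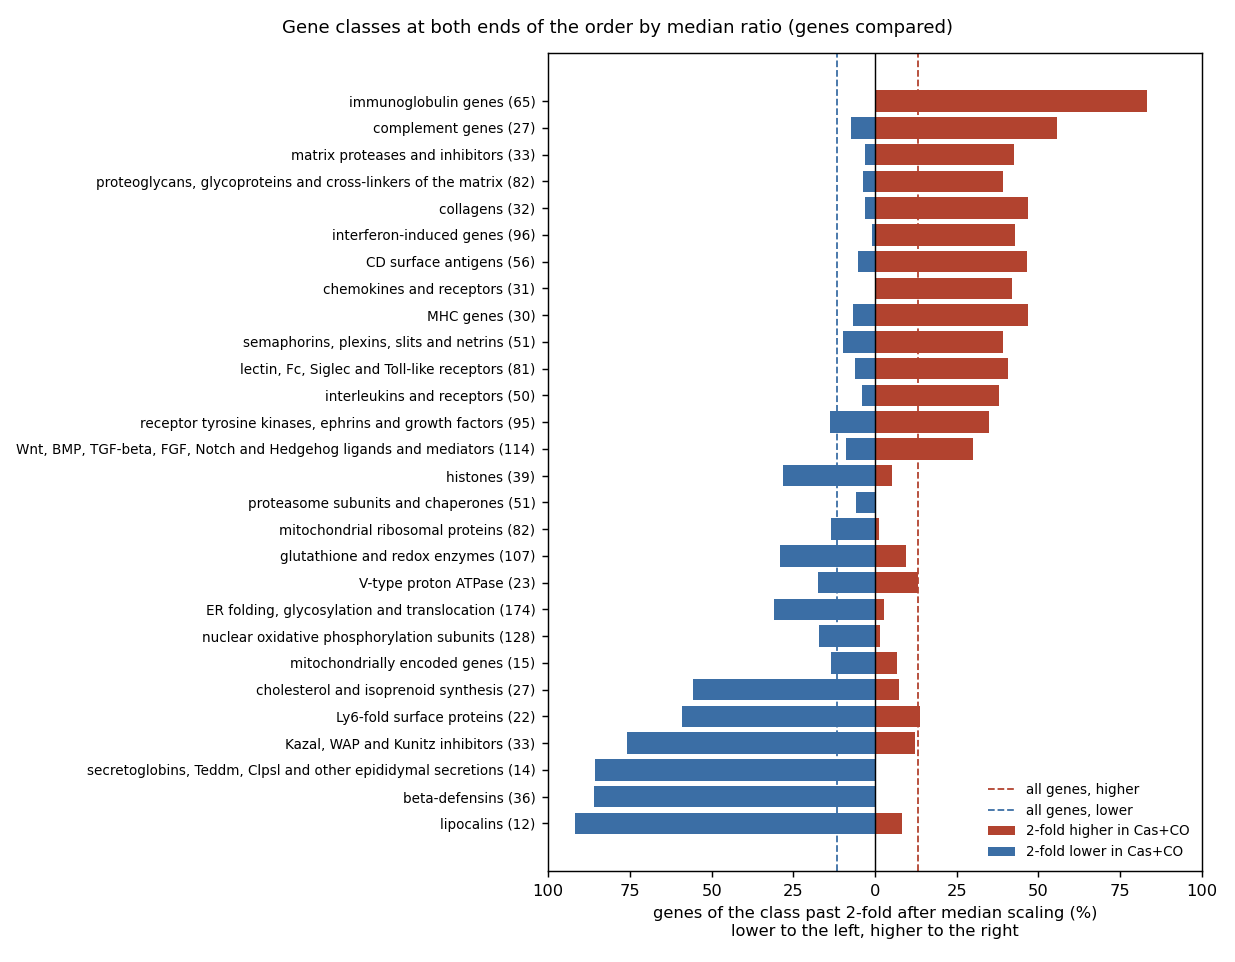
Percentage of compared genes at least 2-fold higher (right) or lower (left) in Cas+CO than in Sham after median scaling, for the 14 classes with the highest and the 14 with the lowest median ratio among 79 classes of at least 10 genes. Dashed lines mark all genes at 13.0% higher and 11.7% lower. Immunoglobulin genes lie at the top with 83.1% higher and lipocalins at the bottom with 91.7% lower. Most immunoglobulin genes reached 1 TPM through Cas+CO alone, so their side follows from the choice of genes.

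Muscle contractile genes lay on both sides. Of 67 compared, 22 were higher and 5 lower (9 and 12 after scaling). Acta2, the smooth muscle actin, stood at 187 TPM in Cas+CO and 158 TPM in Sham, but Actg2, the enteric smooth muscle actin, at 32.7 TPM in Cas+CO and 465 TPM in Sham. Csrp2, a LIM protein of smooth muscle, was at 76.1 TPM in Cas+CO and 6.90 TPM in Sham.

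Markers of spermatids and sperm were nearly absent in Cas+CO, whereas genes of cilia were higher. Of 8 spermatid and sperm markers, 7 were listed at 0 in Cas+CO and 0 of them in Sham, with sums of 0.49 TPM in Cas+CO and 72.4 TPM in Sham. Odf1, an outer dense fibre protein of the sperm tail, was listed at 0 in Cas+CO and had 27.3 TPM in Sham. The wider class of sperm and germ cell genes lay on both sides, with 22 of 72 higher and 22 lower (13 and 26 after scaling). Spag16, an axoneme protein of this class, had 15.9 TPM in Cas+CO and 0.98 TPM in Sham. Genes of the cilium, centriole and axoneme, which build motile and sensory cilia in somatic cells as well as sperm tails, had 88 higher and 1 lower gene among 141 (25 and 6 after scaling). Foxj1, the master regulator of motile cilia, was at 29.0 TPM in Cas+CO and 2.36 TPM in Sham. The axonemal genes Cfap70 and Rsph10b had 10.6 TPM and 10.7 TPM in Cas+CO and 0.45 TPM and 0.63 TPM in Sham. Ift20, a transport subunit used by all cilia, was nearly level, at 95.7 TPM in Cas+CO and 103 TPM in Sham.

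Signalling genes were more often higher than genes at large: 623 of 1336 were higher and 65 lower (235 and 118 after scaling), 46.6% against 37.5% overall. Ligands and mediators of Wnt, BMP, TGF-beta, FGF, Notch and Hedgehog had 70 higher and 5 lower genes among 114 (34 and 10 after scaling). Jag1, a Notch ligand, was at 36.8 TPM in Cas+CO and 2.44 TPM in Sham, and Fgfr2, an FGF receptor, at 199 TPM in Cas+CO and 29.8 TPM in Sham. Semaphorins, plexins, slits and netrins, known for axon guidance, had 33 higher and 3 lower genes among 51, with Slit2 at 39.7 TPM in Cas+CO and 0.82 TPM in Sham. Igfbp3, which binds insulin-like growth factors, was at 65.8 TPM in Cas+CO and 1.52 TPM in Sham. Epidermal growth factor, Egf, lay the other way, at 3.38 TPM in Cas+CO and 24.4 TPM in Sham.

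Transcription and chromatin genes were higher by small steps. Of 1452 compared, 739 (50.9%) were higher and 29 lower, yet after scaling 169 were higher and 62 lower, near or under the background shares. C2H2 zinc finger genes named Zfp, many of which silence transposons, had 263 higher and 1 lower gene among 391, and 54 were higher and 6 lower after scaling. Zfp984 was at 12.7 TPM in Cas+CO and 0.10 TPM in Sham, and the lower member, Zfp969, stood at 0 TPM in Cas+CO, against 10.3 TPM in Sham. Nuclear receptors and cofactors had 34 higher and 1 lower gene among 53 (15 and 1 after scaling). Thra, a thyroid hormone receptor, had 69.8 TPM in Cas+CO and 10.8 TPM in Sham, and the lower one was the lipid sensor Ppard, at 12.3 TPM in Cas+CO and 31.3 TPM in Sham. Hox and other homeobox genes had 39 higher and 4 lower genes among 75, the higher ones including Hoxd3 at 55.1 TPM in Cas+CO and 6.40 TPM in Sham.

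Lower factors were few. Etv5, an ETS family transcription factor, had 4.68 TPM in Cas+CO and 51.2 TPM in Sham. Smarca1, a chromatin remodelling ATPase, had 6.30 TPM in Cas+CO and 98.5 TPM in Sham. Histone genes lay below the median gene, with 9 of 39 higher and 6 lower (2 and 11 after scaling).

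RNA processing and translation took a larger share of the Cas+CO library with few large ratios. Cytosolic ribosomal proteins held 9.92% of TPM in Cas+CO and 7.35% in Sham, yet 84 of 89 lay within 2-fold, with a median ratio of 0.45, or −0.31 relative to all genes. Rpl10 was level at 3514 TPM in Cas+CO and 3558 TPM in Sham, whereas Rps24 had 3422 TPM in Cas+CO and 1225 TPM in Sham. Spliceosome and SR protein genes held 1.65% in Cas+CO and 0.826% in Sham, with 57 of 168 higher and 1 lower (14 and 3 after scaling). They were thus higher less often than all genes, at 33.9% against 37.5% as deposited and 8.33% against 13.0% after scaling. Srrm2, a splicing scaffold, had 232 TPM in Cas+CO and 41.7 TPM in Sham, and Clk1, a kinase of SR proteins, had 301 TPM in Cas+CO and 70.9 TPM in Sham. Mitochondrial ribosomal proteins had 2 higher and 2 lower genes among 82 (1 and 11 after scaling).

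The secretory pathway lay below the median gene. Genes of folding, glycosylation and translocation in the endoplasmic reticulum, where secreted proteins are made, had 19 higher and 13 lower genes among 174, and after scaling 5 were higher and 54 (31.0%) lower. Calr (calreticulin), a lectin chaperone and the most abundant member, had 1121 TPM in Cas+CO and 1945 TPM in Sham. Man1a, a mannosidase that trims N-glycans, had 59.2 TPM in Cas+CO and 384 TPM in Sham. Tmed3, a cargo receptor between the reticulum and the Golgi, had 126 TPM in Cas+CO and 394 TPM in Sham. Against this trend, P3h2, which hydroxylates collagen, had 23.3 TPM in Cas+CO and 2.48 TPM in Sham.

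Proteasome subunits were even, with 50 of 51 within 2-fold as deposited and 48 after scaling. The one higher member was Psme1, a subunit of the interferon-induced activator, at 198 TPM in Cas+CO and 65.8 TPM in Sham. Among heat shock proteins and chaperones, Fkbp5, an androgen- and glucocorticoid-induced co-chaperone of steroid receptors, was at 53.7 TPM in Cas+CO and 212 TPM in Sham. Hsph1, an HSP110 chaperone, was at 88.9 TPM in Cas+CO and 13.0 TPM in Sham.

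Metabolic genes lay below the median gene as a group. Of 904 genes, 209 (23.1%) were higher and 107 (11.8%) lower, and after scaling 96 were higher and 212 (23.5%) lower. Cholesterol and isoprenoid synthesis stood lowest, with 2 of 27 higher and 7 lower (2 and 15 after scaling) and a median of −1.09 relative to all genes. Nsdhl, a sterol dehydrogenase, was at 25.6 TPM in Cas+CO and 217 TPM in Sham. Soat1, which stores cholesterol as esters, was higher, at 201 TPM in Cas+CO and 15.7 TPM in Sham. Nuclear-encoded subunits of oxidative phosphorylation had 9 higher and 3 lower genes among 128 (2 and 22 after scaling), with Cox4i1, a subunit of cytochrome oxidase, at 711 TPM in Cas+CO and 1389.9 TPM in Sham.

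Redox enzymes held 1.42% of TPM in Cas+CO and 3.50% in Sham, with Gpx5 taking 1.71% in Sham, and 16 of 107 were lower and 21 higher (31 and 10 after scaling). The thioredoxin inhibitor Txnip was higher, at 973 TPM in Cas+CO and 109 TPM in Sham. Amino acid and nucleotide enzymes were lower for 27 of 191 and higher for 44 (47 and 19 after scaling). Ido1, which breaks down tryptophan, had 2.55 TPM in Cas+CO and 255 TPM in Sham. Gldc, of the glycine cleavage system, had 4.31 TPM in Cas+CO and 89.7 TPM in Sham. Enzymes of glycolysis and the citric acid cycle included Acly, which makes cytosolic acetyl-CoA, at 93.5 TPM in Cas+CO and 355 TPM in Sham, and Pck1, of gluconeogenesis, at 31.5 TPM in Cas+CO and 0.95 TPM in Sham.

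Membrane transport was mixed, with 191 of 547 genes higher and 70 (12.8%) lower, and 73 higher and 121 (22.1%) lower after scaling. Solute carriers other than mitochondrial ones were lower for 33 of 243 and higher for 77 (54 and 28 after scaling). Abcb5, an ABC exporter, had 1.26 TPM in Cas+CO and 308 TPM in Sham, whereas Abcg2, an exporter of drugs and urate, had 336 TPM in Cas+CO and 126 TPM in Sham. Car4, a membrane carbonic anhydrase, had 4.17 TPM in Cas+CO and 166 TPM in Sham. Of 23 genes of the V-type proton ATPase, which acidifies organelles and the lumen, 18 lay within 2-fold, 5 were higher and 0 lower (3 and 4 after scaling). Atp6v1b1 and Atp6v0a4, isoforms of acid-secreting cells, had 34.8 TPM and 27.0 TPM in Cas+CO and 4.36 TPM and 4.84 TPM in Sham. The general subunit Atp6v1g1 had 180.1 TPM in Cas+CO and 312 TPM in Sham, within 2-fold as deposited.

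Cell cycle, replication and mitosis genes were less often higher than the background, with 50 of 213 (23.5%) higher and 10 lower (8 and 20 after scaling), against 37.5% higher over all genes. DNA repair genes were higher for 34 of 103 with 0 lower, and 3 lay on each side after scaling. Cdkn1c, a cell cycle inhibitor, was at 44.9 TPM in Cas+CO and 5.07 TPM in Sham. Apoptosis regulators had 34 higher and 1 lower gene among 80 (14 and 4 after scaling). Gadd45b, a stress-induced gene, was at 52.8 TPM in Cas+CO and 4.52 TPM in Sham, and the lower one, Bcl2l15, was at 75.4 TPM in Cas+CO and 283 TPM in Sham.

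The ratio also varied with the length and level of the gene. Among protein-coding genes, those with up to 1 kb of exons had a median ratio of 0.07, with 128 of 444 (28.8%) lower. Genes with over 10 kb had a median of 1.04, with 32 of 1300 (2.46%) lower. The shortest genes also lay below the longest within bands of Sham level. Among genes at 10 to 50 TPM in Sham the median was 0.14 for the shortest and 0.93 for the longest genes. At 100 to 500 TPM it was −0.75 and 0.53. Genes under 1 TPM in Sham entered through Cas+CO alone and are left aside here. By Sham level alone, the median ran from 0.88 at 1 to 10 TPM to −0.16 at 500 TPM and over, where 79 of 232 genes (34.1%) were lower. The Sham value enters both the band and the ratio, so part of this last trend follows from the way it is set out.

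**Figure D5:**
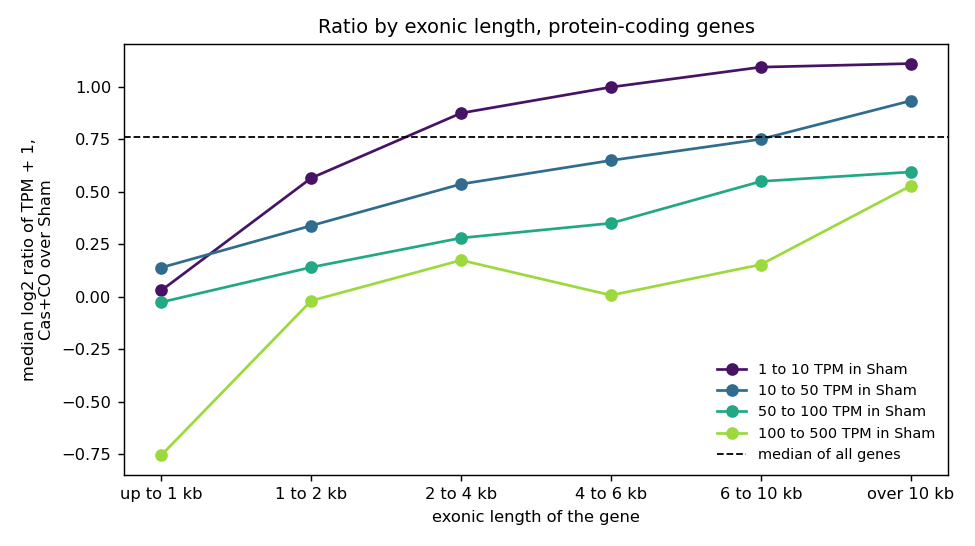
Median log2 ratio of TPM + 1, Cas+CO over Sham, by exonic length of protein-coding genes, in 4 bands of Sham level. In every band the shortest genes lie lowest and the longest highest, and the dashed line marks the median of all genes at 0.76.

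Several classes named above differ in length as well. The median exonic length was 402.5 bases in beta-defensins, 961 in lipocalins, 1950 in oxidative phosphorylation subunits, 1726 in cytosolic ribosomal proteins, 4482 in Zfp genes and 8075 in collagens, against 3862 in all genes. Immunoglobulin genes, at 381 bases, were short and higher, for most of them by the choice of genes. Cholesterol synthesis genes, at 4415 bases, were longer than the median and lower. How much of each class's difference moves with length was not tested.

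Gene biotypes other than protein-coding held a further pattern. Of 13976 protein-coding genes, 5341 (38.2%) were higher and 805 (5.76%) lower. Long intergenic RNAs were lower for 63 of 400 (15.8%) and antisense RNAs for 52 of 334 (15.6%), with 148 and 96 higher. Processed pseudogenes, which are near copies of other genes and can take their reads, were higher for 153 of 720 (21.3%) and lower for 70 (9.72%). Reads of an antisense gene and its partner cannot be told apart where strand was not used, and its use is not given in the sources used here.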

How the data were processed

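RNA of epididymides was sequenced after column extraction of tissue RNA and standard Illumina library preparation, per the labels' protocols. The deposited values are on a log2 scale, 1 per gene, for 23538 genes in each library; no header names the unit. Raised to the power of 2, minus 1, they summed to 1000000 and moved in steps of 0.01 in 100% of values under 1000, so the deposited log2 values were read as log2(TPM + 1). Sequencing depth cannot be read from TPM, and no intervals for counting error were formed. For aligner, counter, build and strand, no label or header has an entry (not given in the sources used here).

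Rows with the same symbol were summed (23504 symbols). Biotype, position and exonic length are from GENCODE M21 (20 identifiers did not match), and promoters from RefSeq (GRCm38.p6), without chromosome 18 and the mitochondrial genome. The log2 ratio was that of TPM + 1 (pseudocount 1), Cas+CO over Sham, for genes at 1 TPM or more in either library, with a limit of 2-fold. The pseudocount shrinks the ratios of genes at low TPM. Each gene entered at most 1 of 83 classes, by symbol (11350 genes). The members, classes and marker lists were chosen with earlier results of these data known. Genes were named by rule: the 20 largest ratios each way at 10 TPM or more, the extreme, most abundant and opposing members of each class, and the 15 largest gains and losses in TPM. Marker genes and members of runs of neighbours were also named. The code was tested on simulated data. Python 3.11.15, NumPy 2.4.6, pandas 2.3.3 and matplotlib 3.10.9 were used. The third library entered only the choice of genes for median scaling.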

Additional observations from a re-analysis of the deposited data

How the results depend on the processing

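The counts of 6069 higher and 1049 lower genes moved by more than 1.5 times under 3 alternatives. They were 2102 and 1897 after median scaling, 3548 and 549 with a minimum of 10 TPM, and 1228 and 413 with a 4-fold limit. The minimum and the limit leave fewer genes to count by construction. Under the other 7 alternatives, which were scaling without the 50 most abundant genes of either library, a pseudocount of 0.1, no minimum, leaving out genes listed at 0, protein-coding genes only, removal of mitochondrial, ribosomal protein, sperm and haemoglobin genes, and the highest row per symbol, the higher count ran between 4074 and 7223 and the lower count between 799 and 1260. Of the class medians recomputed relative to all genes, 715 stayed within 1.5-fold of the reported one and 26 moved further, 10 of them with a minimum of 10 TPM. A scaling shifts all genes nearly alike and so hardly moves these relative medians. It did move the counts: of 79 classes with at least 10 genes, 68 had more higher than lower genes as deposited and 37 after median scaling, 7 and 39 had more lower, and 28 turned. Of the ratios of named genes, 3425 stayed within that range and 489 moved further, 373 of them under median scaling and 116 with a pseudocount of 0.1. None past 2-fold changed sign, but under the scalings and the pseudocount none could. The scalings move a ratio by less than 2-fold, and a pseudocount keeps its sign. No paired analysis was possible because each group has 1 library. With 1 library a group no library can be left out, and depth is unknown, so low values have no stated precision.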
